A study of Mus musculus with 9 samples.

Results

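The small leucine-rich proteoglycans described here were *Dcn* (decorin), *Lum* (lumican), *Bgn* (biglycan), *Fmod* (fibromodulin), *Ogn* (osteoglycin), *Aspn* (asporin), *Prelp* (prolargin) and *Omd* (osteomodulin). They were the 8 rows, of 54232 gene identifiers in the count table, whose identifier mapped to a gene of this named set, and the set was chosen for its level in embryonic fibroblasts beside pluripotent cells. All 8 were found. These proteins are secreted into the extracellular matrix, where a core of leucine-rich repeats binds collagen fibrils and influences their diameter and spacing. Most carry chondroitin, dermatan or keratan sulfate chains, and several, decorin and biglycan above all, also bind growth factors and cell surface receptors. They are typical products of connective tissue fibroblasts and of cartilage, tendon, bone and cornea.

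RNA-seq counts were available for 9 libraries. Naïve mouse embryonic stem cells (naïve mESCs) of strain C57 x CBA were kept in S/L medium (serum and leukemia inhibitory factor) on feeders. Primed mouse epiblast stem-like cells (primed mEpiSCs) of the same strain were converted from the naïve cells and kept in F/A medium (Fgf2 and Activin A), also on feeders. Both states derived from a single line that carries an Oct4-GFP transgene, and both were sampled at passage 5 (P5) and passage 15 (P15), with 2 libraries in each of the 4 groups. The feeders were mitomycin C-treated mouse embryonic fibroblasts. The remaining library came from mouse embryonic fibroblasts (MEFs), labelled with the same strain. With no second library, the MEF level had no replicate check. The labels do not say that replicate libraries came from separate cultures, so the p-values measure only the spread between these libraries, which may be technical.

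The totals were 14378051 to 25646547 counts a library. The limit that a count of 0 allows, 3 counts, was worth 0.128 to 0.221 CPM (each count divided by its library’s scaled size). The 7 naïve markers summed to 1884 to 2337 CPM in naïve libraries and 112 to 224 CPM in primed libraries, and the 6 primed markers to 49.6 to 74.4 CPM and 705 to 777 CPM. The 30 fibroblast markers, which include *Col1a1*, *Col3a1* and *Thy1*, summed to 97809 CPM in MEFs. In the cultures they summed to 14141 to 14253 CPM in naïve P5, 9982 to 10233 CPM in primed P5, 22923 to 24002 CPM in naïve P15 and 18016 to 18843 CPM in primed P15. All 30 were above 3 counts in every group, and the part of feeder RNA in the results on the proteoglycans was not tested. In these bulk libraries, fewer cells of a type and less RNA per cell cannot be told apart.

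In the mouse genome (GRCm38, GENCODE M21), 7 of the 8 genes lie in 3 groups of neighbours. *Dcn* (chr10:97479609-97518143, plus strand) and *Lum* (chr10:97565128-97572703, plus strand) lie 46984 bases apart, followed by *Kera* and *Epyc*. *Aspn* (chr13:49544443-49567565), *Omd* (chr13:49582462-49592822) and *Ogn* (chr13:49608046-49624501) follow each other on the plus strand of chromosome 13 behind *Ecm2*, with 14896 and 15223 bases between them. All 3 lie within the span of *Cenpp* on the opposite strand, but only *Aspn* shares exonic sequence with it, 7 bases. *Prelp* (chr1:133910304-133921414, minus strand) and *Fmod* (chr1:134037254-134048277, plus strand) are 115839 bases apart. *Prelp* shares 350 exonic bases with the antisense gene *Gm15851*, and whether the counting used strand is not given in the sources used here, so reads over those bases may belong to either gene. *Bgn* (chrX:73483602-73495933, plus strand) lies alone.

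The sequences before the starts of 4 of these genes are shown to set the neighbours *Aspn* and *Ogn*, together with *Fmod*, beside *Bgn*, the most abundant member. *Aspn*, *Ogn* and *Fmod* had the same sign as each other in all 4 pairwise comparisons. Each is the 100 bases upstream of the RefSeq start (GRCm38.p6, plus strand), 5′ to 3′, and capitals mark matches to GGGCGG, searched on both strands with TATAAA and CCAAT.
*Aspn*, chr13:49544343-49544442: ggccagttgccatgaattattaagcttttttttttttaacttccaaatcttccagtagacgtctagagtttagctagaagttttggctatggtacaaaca
*Ogn*, chr13:49607915-49608014: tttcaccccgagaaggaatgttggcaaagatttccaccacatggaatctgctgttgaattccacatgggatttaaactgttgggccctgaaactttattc
*Fmod*, chr1:134037154-134037253: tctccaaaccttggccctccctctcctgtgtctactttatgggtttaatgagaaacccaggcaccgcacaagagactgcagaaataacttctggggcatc
*Bgn*, chrX:73483501-73483600: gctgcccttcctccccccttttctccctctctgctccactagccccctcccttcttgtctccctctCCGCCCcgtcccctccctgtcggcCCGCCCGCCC

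The windows differed in base composition. *Aspn* had 35% G and C, *Ogn* 43%, *Fmod* 50% and *Bgn* 71%, beside a median of 55% over 32851 promoter windows of the same length. *Bgn* held 3 matches to GGGCGG, a motif found in 24.7% of those windows, and none of these 4 windows held TATAAA, found in 5.56%, or CCAAT, found in 18.9%. A match is a description of letters only. In all, 6 of the 8 genes had a window in this set, *Omd* and *Prelp* being the others. *Omd*, which lies between *Aspn* and *Ogn*, had 36% G and C and no match to any of the 3 motifs. *Prelp* had 64% G and C and 1 match to CCAAT.

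In MEFs, every member was expressed above 3 counts, and the order of the levels per kilobase of exon was *Bgn*, *Aspn*, *Ogn*, *Fmod*, *Lum*, *Dcn*, *Prelp* and *Omd*. The levels were 673 CPM per kb for *Bgn*, 275 for *Aspn*, 127 for *Ogn*, 100.4 for *Fmod*, 60.5 for *Lum*, 36.2 for *Dcn*, 13.7 for *Prelp* and 1.36 for *Omd*. This order has no replicate spread behind it. The MEF level was at least 2-fold above the highest naïve or primed library for 6 of the 8 genes, namely *Fmod* (45.5-fold), *Aspn* (23.3-fold), *Ogn* (9.01-fold), *Prelp* (4.42-fold), *Bgn* (2.67-fold) and *Omd*. For *Omd* the ratio was 72 counts to 3 counts, or 13.9 after scaling. Its 95% exact interval of 4.56 to 68.8 covers counting error only. The interval is no test of the contrast, since *Omd* was chosen on it and set beside its highest culture library. Of 17180 genes with enough counts, which did not include *Omd*, 7.59% were at least 2-fold above. Because the members were chosen on this contrast, nothing is read from the count. *Bgn*, at 2.67-fold, was the member just inside that limit. *Lum*, whose highest library was 2.18-fold above MEFs, and *Dcn*, whose highest was 3.54-fold above, were outside it.

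**Figure D1:**
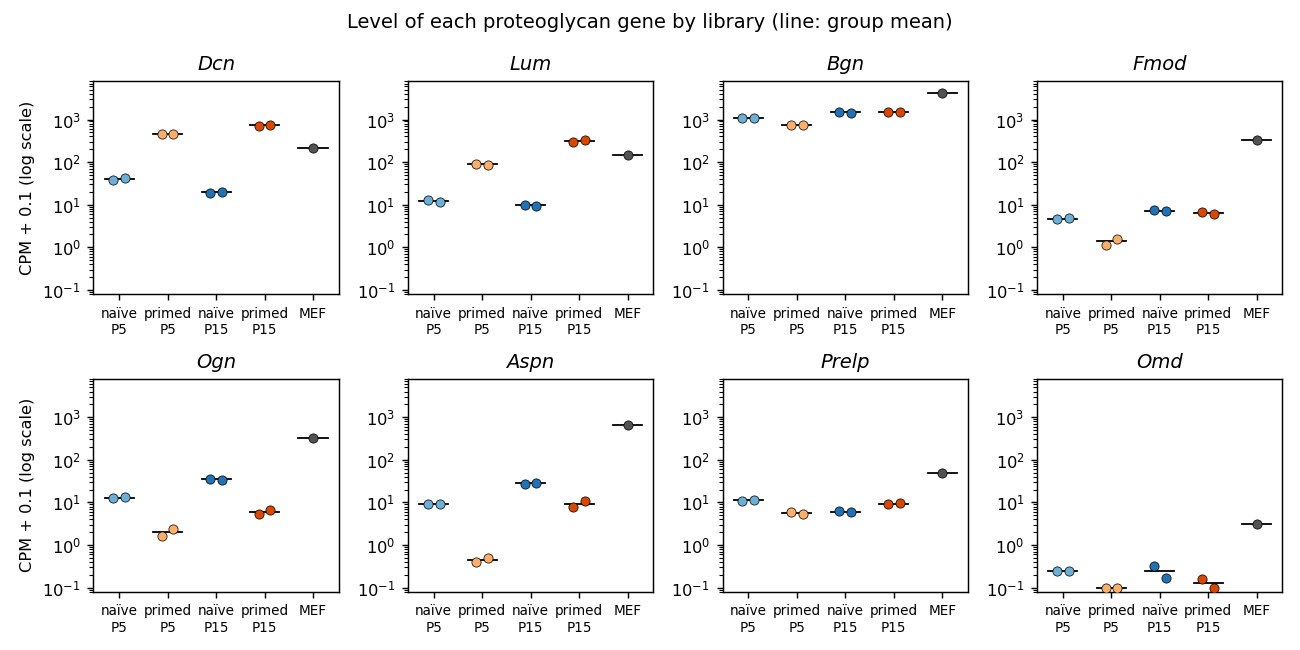
Level of the 8 small leucine-rich proteoglycans in each of the 9 libraries, as CPM + 0.1 on a log axis, with a point for each library, a line for the group mean and colours for the groups. *Fmod*, *Ogn*, *Aspn* and *Omd* are far higher in MEFs than in any culture, while *Dcn* and *Lum* reach 749 and 323 CPM in primed P15, above their MEF levels of 211 and 148 CPM.

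Decorin, which binds collagen type I fibrils and transforming growth factor β, was the member that differed most between the states in the direction of higher primed levels. *Dcn* stood at 36.9 and 43.1 CPM in naïve P5, 465 and 457 CPM in primed P5, 18.9 and 19.9 CPM in naïve P15, 720.0 and 749 CPM in primed P15, and 211 CPM in MEFs. Every primed library was above MEFs and every naïve library was below them. Primed cells were higher by 3.56 ± 0.049 (SE) on the log2 scale at P5, an 11.8-fold change (adjusted p = 7.36e-31). At P15 the difference was 5.23 ± 0.074, or 37.6-fold (adjusted p = 1.94e-36). Over 17180 genes, 23.8% were at least 2-fold above MEFs in both primed P5 libraries, and 21.5% in both primed P15 libraries, as *Dcn* was.

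Lumican, a keratan sulfate proteoglycan of cornea and dermis whose gene is the neighbour of *Dcn*, took a like course at a lower level. *Lum* stood at 12.5 and 11.4 CPM in naïve P5, 89.5 and 86.0 CPM in primed P5, 9.80 and 9.34 CPM in naïve P15, 299 and 323 CPM in primed P15, and 148 CPM in MEFs. At P5 the primed libraries lay between the naïve and MEF levels, and at P15 they lay above both. The difference between primed and naïve cells was 2.91 ± 0.071 at P5, or 7.51-fold (adjusted p = 1.30e-24), and 5.01 ± 0.086 at P15, or 32.3-fold (adjusted p = 5.32e-34). The further genes of this stretch, *Kera* and *Epyc*, did not exceed 0.341 and 0.402 CPM in any library, MEFs included.

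Asporin, a relative of decorin without glycosaminoglycan chains that binds collagen, was nearly absent from primed P5. *Aspn* stood at 8.90 and 9.05 CPM in naïve P5, 0.298 and 0.388 CPM in primed P5, 27.5 and 27.8 CPM in naïve P15, 7.80 and 10.5 CPM in primed P15, and 648 CPM in MEFs. The primed P5 levels rest on 6 and 7 counts. Primed libraries were below naïve libraries at each passage, and P15 libraries of either state were above the P5 libraries of that state, while primed P15 overlapped with naïve P5. The difference between primed and naïve cells was −4.66 ± 0.28 at P5, or 25.3-fold lower (adjusted p = 6.34e-15), and −1.61 ± 0.13 at P15, or 3.04-fold lower (adjusted p = 2.02e-13). Without either naïve P5 library, *Aspn* had too few counts to be tested at P5.

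Osteoglycin, also called mimecan, likewise was lower in primed cells at both passages. *Ogn* stood at 12.3 and 13.0 CPM in naïve P5, 1.49 and 2.33 CPM in primed P5, 36.2 and 33.9 CPM in naïve P15, 5.11 and 6.36 CPM in primed P15, and 326 CPM in MEFs. The libraries of each group lay apart from those of the other groups, but the share of all genes for which this holds was not counted. The difference between primed and naïve cells was −2.71 ± 0.19 at P5, or 6.53-fold lower (adjusted p = 1.08e-13), and −2.62 ± 0.13 at P15, or 6.15-fold lower (adjusted p = 1.74e-19).

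Fibromodulin, which binds collagen type I and takes part in fibril assembly in tendon, was lower in primed cells at P5. *Fmod* stood at 4.57 and 4.65 CPM in naïve P5, 1.04 and 1.50 CPM in primed P5, 7.29 and 7.10 CPM in naïve P15, 6.54 and 6.08 CPM in primed P15, and 332 CPM in MEFs. The difference between primed and naïve cells was −1.83 ± 0.26 at P5, or 3.57-fold lower (adjusted p = 3.94e-07). At P15 the primed libraries were again the lower pair, by −0.20 ± 0.18, which did not pass the test (adjusted p = 0.344).

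Biglycan, the closest relative of decorin and also a ligand of Toll-like receptors, was abundant in every library. *Bgn* stood at 1098 and 1083 CPM in naïve P5, 731 and 727 CPM in primed P5, 1486 and 1457 CPM in naïve P15, 1537 and 1501 CPM in primed P15, and 4102 CPM in MEFs. Primed P5 was lowest, and the naïve and primed P15 libraries lay within a narrow band. The difference between primed and naïve cells was −0.55 ± 0.031 at P5, which passed the adjusted p (1.47e-15) but not the 2-fold threshold, and 0.035 ± 0.051 at P15 (adjusted p = 0.561).

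Prolargin, a basement membrane and cartilage protein that binds heparan sulfate, differed by less than 2-fold between the states. *Prelp* stood at 10.9 and 11.2 CPM in naïve P5, 5.76 and 5.38 CPM in primed P5, 6.11 and 5.82 CPM in naïve P15, 9.01 and 9.37 CPM in primed P15, and 49.4 CPM in MEFs. The primed libraries were below the naïve libraries at P5, by −0.95 ± 0.14 (adjusted p = 1.02e-06), and above them at P15, by 0.61 ± 0.17 (adjusted p = 0.00248). Osteomodulin, a keratan sulfate protein of bone, had 72 counts in MEFs and 0 to 3 counts in each culture library, at or below the 3-count limit. *Omd* was therefore not tested, and a difference between the cultures was not detectable at this depth.

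Counted together at P5, 2 of the 7 tested members were called higher in primed cells and 3 were called lower, where a call needed both an adjusted p below 0.01 and a change of 2-fold or more. Of 16482 genes, 22.3% were called, 13.5% higher and 8.85% lower. Their median log2 fold change was −0.95, beside 0.0078 over all genes tested. At P15, 2 were higher and 2 lower, beside 23.2% of 15733 genes called, 12.2% higher and 11.0% lower, with a median of 0.035 beside −0.0039. The members that were higher were *Dcn* and *Lum* at both passages, and *Aspn* and *Ogn* were lower at both.

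**Figure D2:**
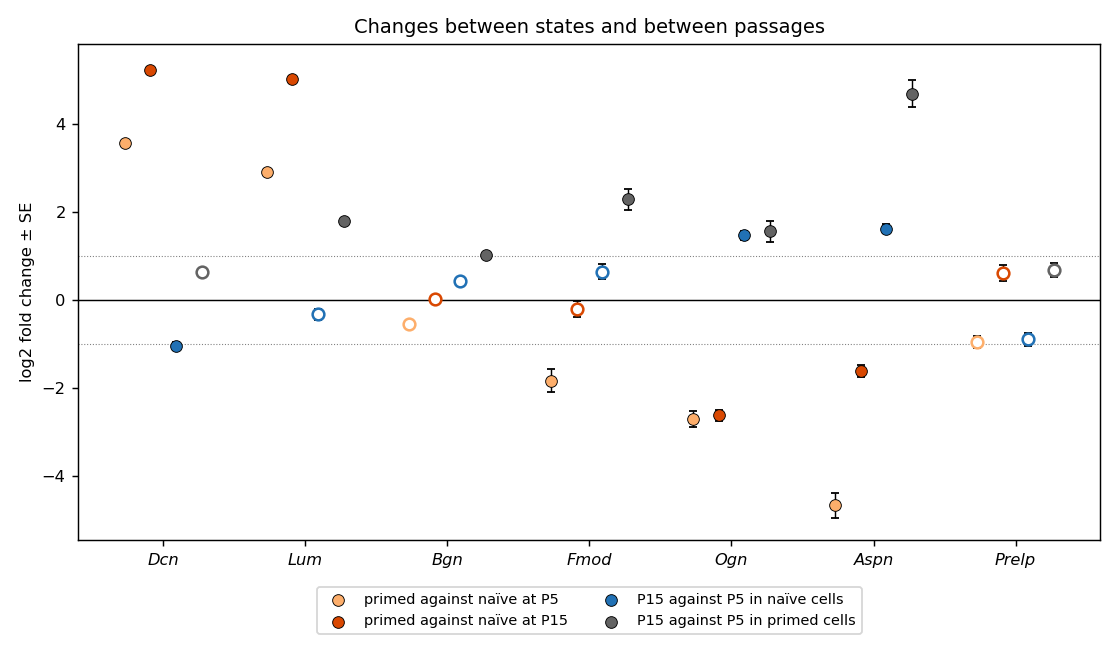
Log2 fold change with its standard error for the 7 tested members in 4 comparisons, primed against naïve at P5 and P15 and P15 against P5 within each state. Filled points passed both thresholds (adjusted p below 0.01, change of 2-fold or more), open points did not, and dotted lines mark 2-fold. *Dcn* and *Lum* are the members with filled points above 2-fold in both comparisons of state, and *Ogn* and *Aspn* have filled points on opposite sides in the comparisons of state and of passage.

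Between P5 and P15, the naïve cells changed in 3 of the 7 members, 2 higher and 1 lower, beside 1.13% of 15683 genes called, 0.414% higher and 0.721% lower. Of the 30 fibroblast markers, 5 were higher and none lower in the same interval, with a median of 0.45, and their part in the changes of the members was not tested. *Aspn* rose by 1.62 ± 0.10 on the log2 scale (adjusted p = 3.23e-07) and *Ogn* rose by 1.47 ± 0.095 (adjusted p = 3.70e-07). *Dcn* fell by 1.04 ± 0.096 (adjusted p = 8.75e-06), a change just past 2-fold that became −0.93 without the naïve P5 replicate 2 library and was then no longer called. *Bgn* (0.43 ± 0.037), *Fmod* (0.64 ± 0.17), *Lum* (−0.32 ± 0.13) and *Prelp* (−0.89 ± 0.14) were not called. The median over members was 0.43, beside 0.00068 over all genes.

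In the primed cells, 5 of the 7 members rose from P5 to P15 and none was called lower, beside 11.6% of 15957 genes called in either direction, 3.18% higher and 8.43% lower. *Aspn* rose by 4.69 ± 0.30 (adjusted p = 3.69e-13) from its 6 and 7 counts, and *Fmod* by 2.29 ± 0.25 (adjusted p = 8.87e-09). *Lum* rose by 1.79 ± 0.055 (adjusted p = 2.90e-20), *Ogn* by 1.56 ± 0.24 (adjusted p = 3.43e-06) and *Bgn* by 1.03 ± 0.043 (adjusted p = 3.62e-17). The *Bgn* change was 0.90 with scaling by library size alone, under 2-fold, and *Aspn* could not be tested without either primed P15 library. *Dcn* (0.64 ± 0.045) and *Prelp* (0.69 ± 0.15) differed by less than 2-fold. The median over members was 1.56, beside −0.0012 over all genes. The fibroblast markers moved in the same interval, with 13 of 30 higher, 1 lower and a median of 0.86, and their part in the rise of the members was not tested.

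The state difference itself was compared between the passages in a fit of all 8 culture libraries. It shifted toward higher primed levels from P5 to P15 for 5 of the 7 members, beside 7.16% of 16926 genes called in either direction, 2.36% in that direction and 4.80% in the other. The change in the log2 difference was 3.07 ± 0.35 for *Aspn* (adjusted p = 2.13e-08), 2.12 ± 0.12 for *Lum* (adjusted p = 4.48e-15) and 1.69 ± 0.090 for *Dcn* (adjusted p = 7.42e-16). For *Fmod* it was 1.65 ± 0.31 (adjusted p = 7.45e-05), and for *Prelp*, which was on opposite sides at the 2 passages, 1.58 ± 0.22 (adjusted p = 6.71e-07). *Bgn* had 0.60 ± 0.052, under 2-fold, and *Ogn* had 0.10 ± 0.24 (adjusted p = 0.788).

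Relative to MEFs, the members differed in their range in the cultures, and several of the ranges overlapped. *Fmod* and *Aspn* stayed at or below 4.27% of the MEF level in every group mean, and *Ogn* at or below 10.7%. *Bgn* lay at 17.8 to 37.0% and *Prelp* at 11.3 to 22.3%. *Dcn* lay at 18.9% in naïve P5, 218% in primed P5, 9.16% in naïve P15 and 347% in primed P15, and *Lum* at 8.07%, 59.2%, 6.45% and 209.9%.

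The 30 fibroblast markers gave a scale for these percentages. Their median was 17.4% of the MEF level in naïve P5, 14.0% in primed P5, 22.5% in naïve P15 and 25.3% in primed P15. Their lowest was 5.82%, 2.92%, 10.9% and 2.60% in the same order, and their highest 105%, 962%, 116% and 1292%, which was *Timp1* in naïve cells and *Ccl2* in primed cells. The members were chosen for their MEF level beside pluripotent cells, so low percentages were favoured by the choice. *Fmod* and *Aspn* were below all 30 markers in all 4 groups. *Ogn* was too in the group means, but in the naïve P15 replicate 1 library it stood at 11.1% while the lowest marker, *Pdgfrb*, stood at 10.01%. *Omd*, with at most 3 counts a culture library, could not be placed on this scale. *Dcn* was above 29 of 30 in both primed groups and *Lum* above 27 at P5 and 28 at P15, while in naïve P15 both were below all 30. *Bgn* was above 26, 19, 24 and 22 of the markers in naïve P5, primed P5, naïve P15 and primed P15. Whether these differences come from feeders or from the pluripotent cells was not tested.

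**Figure D3:**
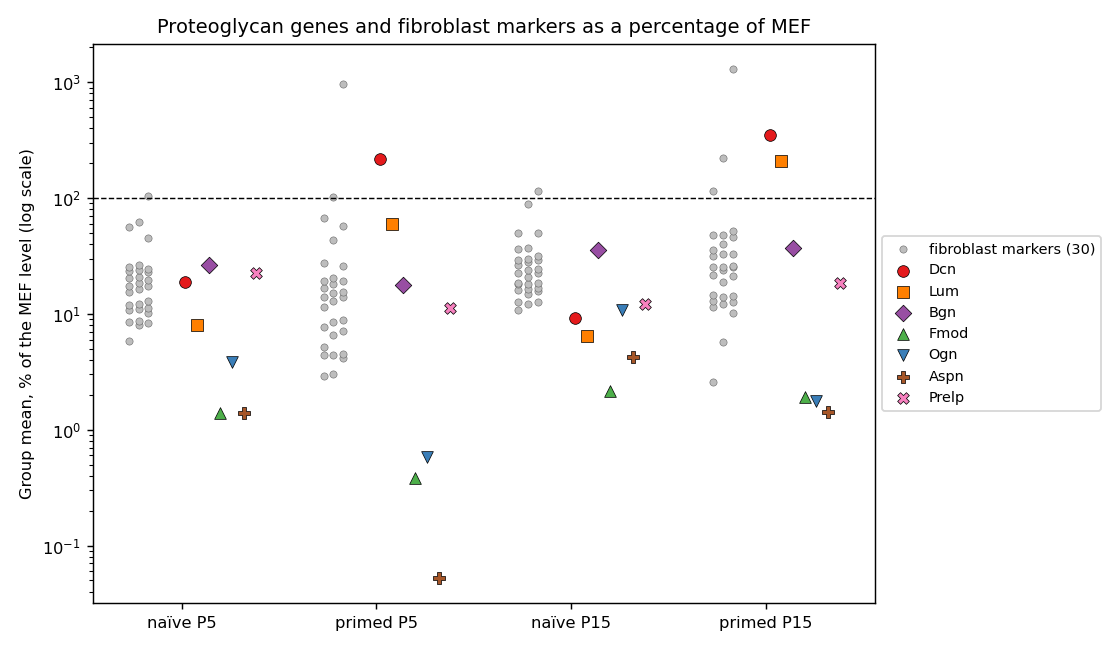
Group mean of 7 members in the 4 culture groups as a percentage of the MEF level, on a log axis, with a grey dot for each of the 30 fibroblast markers and a dashed line at the MEF level (*Omd* is left out). In the primed groups *Dcn* lies above the MEF level, whereas *Fmod*, *Ogn* and *Aspn* lie below all markers.

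The make-up of the set therefore differed between groups. Of the summed level per kilobase over the 8 members, *Bgn* took 88.0 and 87.4% in naïve P5 and 86.8 and 86.9% in naïve P15, but 50.2 and 50.6% in primed P5 and 49.7 and 47.5% in primed P15. MEFs were at 52.2% for *Bgn*. The rest was *Dcn* and *Lum* in primed cells, with *Dcn* at 33.4 and 33.2% and *Lum* at 15.3 and 14.9% at P5, and 24.3 and 24.8% and 24.1 and 25.5% at P15. In MEFs the rest was instead *Aspn* (21.4%), *Ogn* (9.88%) and *Fmod* (7.80%), with *Dcn* at 2.81% and *Lum* at 4.70%.

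Ratios between members showed the same contrast within each library, free of its scaling. *Bgn* per kilobase was 28.4 and 24.1 times *Dcn* in naïve P5, 1.50 and 1.52 times in primed P5, 75.4 and 70.1 times in naïve P15, 2.04 and 1.92 times in primed P15, and 18.6 times in MEFs. Primed libraries were thus far below MEFs and naïve libraries above them in this ratio. The level of *Aspn* per kilobase was 0.758 to 0.895 times that of *Ogn* in naïve libraries, 0.218 and 0.182 times in primed P5, 1.67 and 1.80 times in primed P15 and 2.16 times in MEFs.

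**Figure D4:**
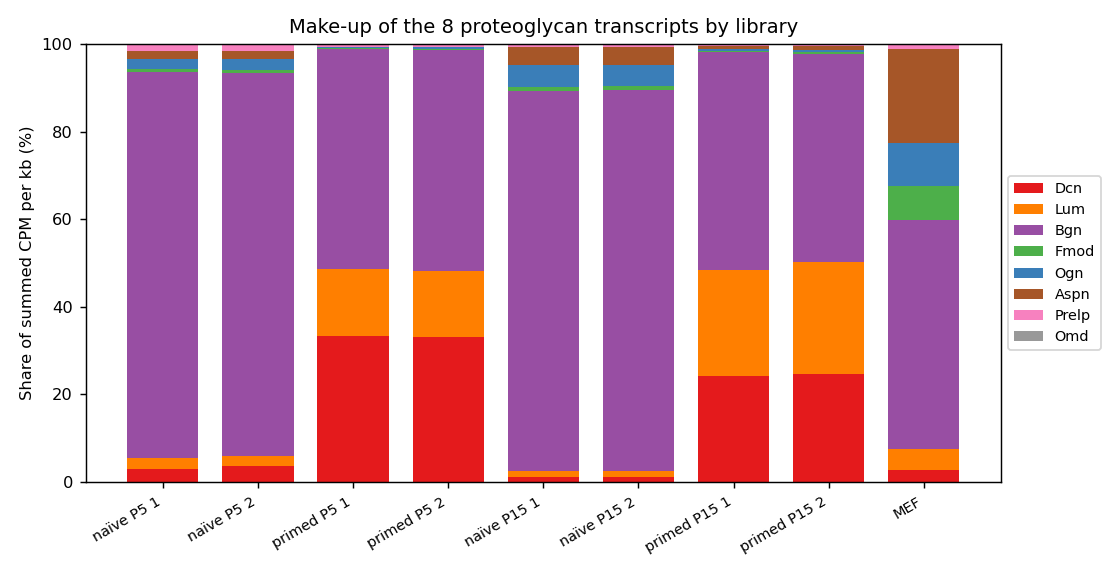
Share of each member in the summed CPM per kilobase of the set, in percent, as a stacked bar for each of the 9 libraries. *Bgn* fills 86.8 to 88.0% of the naïve bars and 47.5 to 52.2% of the primed and MEF bars, whose remainder is *Dcn* and *Lum* in primed cells and mostly *Aspn*, *Ogn* and *Fmod* in MEFs.

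The genes whose levels followed each member most closely over the 9 libraries were found among 11363 candidates by Pearson's r of log2(CPM + 1). The 9 libraries form 5 groups and the single MEF library sets much of the range, so these values are descriptions. *Dcn* was followed by *Clic1* (0.996), *Selenop* (0.995) and *Il33* (0.994), and *Lum* by *Sod3* (0.997), *Tmem176b* (0.996) and *Iglon5* (0.995). *Bgn* was followed by *Postn* (0.998), *Ehd2* and *Pcolce*, *Fmod* by *Cavin1* (0.995), *Klhl22* and *Itgbl1*, and *Aspn* by the collagen cross-linking enzyme *Lox* (0.998), *Cnn3* and *Col1a1*. *Ogn* was followed by *Col8a1* (0.997), *Ccdc80* and *Tubb2a*, and *Prelp* by *Irx1* (0.981), *Dkk3* and *Tnfaip6*. Among members, *Dcn* and *Lum* had r = 0.957. *Aspn* had 0.973 with *Ogn*, 0.964 with *Bgn* and 0.948 with *Fmod*, and *Bgn* had 0.961 with *Fmod*, while *Dcn* had −0.31 with *Aspn* and −0.46 with *Ogn*.

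Fewer of the other genes of the family could be tested. Of 10 further genes (*Ecm2*, *Kera*, *Epyc*, *Optc*, *Chad*, *Chadl*, *Nyx*, *Tsku*, *Podn* and *Podnl1*), 5 were tested at P5 and 6 at P15, and *Kera*, *Epyc*, *Chad* and *Nyx* had too few counts in every comparison. Over all genes, 22.3% were called at P5, 23.2% at P15 and 11.6% from P5 to P15 in primed cells. With so few family genes tested, their number of calls is not read against these shares. At P5, *Chadl* was lower by 1.36 ± 0.36 (adjusted p = 0.00154), and none was higher. *Chadl* shares 1023 of its 5257 exonic bases with *L3mbtl2*, so reads over those bases may belong to either gene. Without the primed P5 replicate 2 library the *Chadl* value was −0.97. At P15 none was called, and from P5 to P15 in primed cells *Ecm2*, the gene upstream of *Aspn*, rose by 2.72 ± 0.69 (adjusted p = 0.00138) from 3 and 1 counts to 11 and 15 counts, a change of 2.21 without the primed P5 replicate 2 library (adjusted p = 0.0265). *Tsku* was higher in primed cells by 0.84 ± 0.079 at P5 and 0.75 ± 0.10 at P15, under 2-fold. *Podn*, at 113 CPM in MEFs and 7.27 to 9.87 CPM in the cultures, differed between states by −0.13 at P5 and −0.088 at P15.

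The enzymes that build and sulfate the chains of these proteins were listed with the transporters *Slc26a2* and *Slc35b2*. With both directions counted, this list was called between the states about as often as all genes (22.3% at P5 and 23.2% at P15). More of its calls were higher than lower in primed cells. Of 29 tested genes of 30, the P5 comparison called 6 higher and 1 lower in primed cells, beside 13.5% and 8.85% of all genes. The P15 comparison called 5 higher and 2 lower, beside 12.2% and 11.0%. The medians were 0.49 at P5 and 0.55 at P15, beside 0.0078 and −0.0039 over all genes. The keratan sulfate sulfotransferase *Chst1* had group means of 5.38 and 3.21 CPM in naïve P5 and P15, 58.3 and 49.9 CPM in primed P5 and P15, and 7.19 CPM in MEFs, and was higher by 3.47 ± 0.097 at P5 and 3.93 ± 0.14 at P15. *Chst15*, which sulfates chondroitin sulfate, was higher by 2.32 ± 0.095 and 2.75 ± 0.12. The genes called lower were *B3gnt7* at both passages (−1.35 ± 0.058 and −1.26 ± 0.078) and *Chst5* at P15 (−1.65 ± 0.40). From P5 to P15, none of the 29 was called in naïve cells, beside 1.13% of all genes, and 1 (*Chst2*, 1.03 ± 0.097) was higher in primed cells, beside 3.18% of all genes.

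Part of the collagens and assembly proteins on which these proteoglycans act rose with passage. Their list shares genes with the fibroblast markers, among them *Col1a1*, *Col1a2*, *Col3a1*, *Col5a1* and *Col5a2*. These were the 5 fibroblast markers called higher at P15 in naïve cells, so the counts are not separate results. The part of feeder RNA in these changes was not tested. Of 25 genes, 8 were higher and none lower at P15 in naïve cells (0.414% of all genes were higher), with a median of 0.61, among them *Eln* (3.04 ± 0.18), *Col14a1* (1.62 ± 0.21) and *Col11a1* (1.45 ± 0.070). In primed cells 11 of 24 tested were higher and 2 lower (3.18% and 8.43% of all genes), with a median of 0.95, led by *Col14a1* (3.19 ± 0.14), *Col3a1* (2.49 ± 0.045) and *Eln* (2.0 ± 0.17). Between the states, the calls in primed cells were 3 higher and 6 lower at P5 and 4 higher and 5 lower at P15, beside 22.3% and 23.2% of all genes called. *Col2a1*, the cartilage collagen, was higher at both passages (3.64 ± 0.056 at P5 and 1.33 ± 0.084 at P15) and *Col12a1* was lower at both passages (−2.42 ± 0.043 and −1.71 ± 0.066).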

How the data were processed

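Per the study's methods, the authors trimmed reads with Cutadapt, aligned them to mm10 with HISAT2 and ran featureCounts on an Ensembl annotation. The deposited table holds unnormalised counts, and the strand and multimapping settings of the counting are not given in the sources used here. Names came from GENCODE M21 for 54079 of 54232 identifiers, and 92 spike-in entries had no counts. Counts were tested with edgeR 4.0.16 in R 4.3.3 (quasi-likelihood, TMM scaling, at least 10 counts in at least 2 libraries of the fit, Benjamini-Hochberg adjustment over all genes tested). Calls needed both an adjusted p below 0.01 and a change of 2-fold or more. Each pairwise comparison used its 4 libraries, and the MEF library entered no fit. CPM used TMM over all 9 libraries. The fits were tested on simulated counts. Replicate libraries agreed closely, with a biological coefficient of variation of 3.26 to 4.79%. Named genes were the members, the other family genes and up to 3 most changed called genes of each list. The 3 genes most like each member and *B3gnt7* were named too. Alternatives covered scaling, filtering, DESeq2 1.42.0, a replicate block, the fit of all 8 libraries and leaving out each library. The labels give no batch. The members and gene lists were chosen with earlier results of these data known.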

Additional observations from a re-analysis of the deposited data

Results flagged for a closer look

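The difference between primed and naïve cells was not the same at P15 as at P5 for 5 of the 7 tested members, by a test of the difference itself in a fit of all 8 culture libraries. The change in the log2 difference, P15 minus P5, was 3.07 for *Aspn*, 2.12 for *Lum*, 1.69 for *Dcn*, 1.65 for *Fmod* and 1.58 for *Prelp*, all in the direction of primed cells. For *Aspn*, the state difference shrank from −4.66 to −1.61, and for *Dcn* and *Lum* it grew from 3.56 to 5.23 and from 2.91 to 5.01. For *Prelp*, it went from −0.95 to 0.61. The 5 members called here were called in each alternative that was run.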

How the results depend on the processing

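Over the alternatives, 368 of 374 member values kept their direction and their side of the threshold. The number of members called was 4 or 5 at P5, 4 at P15, 2 or 3 in naïve passage, 4 or 5 in primed passage and 5 in the difference. In MEFs, 6 members stood at least 2-fold above the highest culture library under each scaling. Leaving out a culture library cannot lower that ratio, and the single MEF library was always kept, so those runs are no check of it. Direction turned for *Bgn* at P15 (−0.0061 to 0.081 over left-out libraries, negative without the naïve P15 replicate 2 library) and for *Ogn* in the difference (−0.011 with library size alone, −0.22 to 0.42 over left-out libraries, negative at −0.22 without the primed P5 replicate 1 library and −0.057 without the primed P15 replicate 2 library), neither of which had been called. *Dcn* in naïve passage (−0.93 without the naïve P5 replicate 2 library) and *Bgn* in primed passage (0.90 with library size alone) fell under 2-fold. Library size alone moved the median of all genes by 0.20 at P5, 0.10 at P15, −0.13 in primed passage and −0.11 in the difference, and the P5 calls from 2222 higher and 1458 lower to 2863 and 1083. Whether replicate numbers pair the samples was not settled. The labels do not say, and the deviations of same-numbered libraries correlated at −0.103 to 0.116, which cannot decide it. With the replicate block, 3663 genes were called at P5, 3369 at P15, 229 in naïve passage, 1923 in primed passage and 1164 in the difference, and crossed numbers, chosen after seeing the data, gave 3647 at P15. The block changed no member's call. With 2 libraries a group, the spread behind each test is small and rests on the genes fitted together, and members under 10 counts limit what can be seen.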

Other observations

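Other proteoglycan core proteins and the signalling partners of decorin and biglycan were called as follows. Of 25 tested core proteins of other proteoglycans, the P5 comparison called 8 higher and 2 lower in primed cells, beside 22.3% of all genes called, led by *Prg4* (lubricin, 2.66 ± 0.23 on the log2 scale), *Gpc2* (2.23 ± 0.31) and *Gpc3* (2.16 ± 0.044). At P15, 7 were higher and 1 lower, beside 23.2% of all genes called, led by *Spock1* (4.89 ± 0.52), with the cartilage proteoglycan *Acan* lower (−3.32 ± 0.24) and *Tgfbr3* higher (2.51 ± 0.091). From P5 to P15, 1 of 24 tested fell in naïve cells (*Srgn*, −2.81 ± 0.40), beside 0.721% of all genes, and 2 of 25 rose and 5 fell in primed cells, beside 3.18% and 8.43% of all genes, among them *Spock3* (2.78 ± 0.29) and *Gpc2* (−2.22 ± 0.31).

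Of 16 growth factors and receptors that bind decorin or biglycan, the P5 comparison called 8 higher and 1 lower in primed cells, beside 13.5% and 8.85% of all genes, among them the biglycan receptor *Tlr4* (2.34 ± 0.17) and *Tgfb2* (2.06 ± 0.088). The receptor *Erbb4* had no count in naïve P5 and 13 and 11 counts in primed P5. At P15, 4 were higher and 3 lower, beside 12.2% and 11.0% of all genes, with *Fgf7* higher (2.56 ± 0.098) and *Tgfb3* lower (−1.49 ± 0.085). In naïve cells *Tgfb2* (1.28 ± 0.11), *Wisp1* (1.23 ± 0.057) and *Bmp4* (1.10 ± 0.12) rose with passage. In primed cells *Wisp1* also rose, by 1.25 ± 0.080, while *Tgfb2* fell by 1.10 ± 0.085 and the receptor *Met* by 1.47 ± 0.098.

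Genes listed as markers of other cell types had counts in the cultures, and which cells expressed them was not tested. The 15 cartilage, tendon and bone markers summed to 377 CPM in MEFs and to 147 to 291 CPM in the cultures, and 11 markers of endothelium, macrophages, muscle and fat to 134 CPM in MEFs and 26.3 to 115 CPM in the cultures. Of the 15 markers, 12 to 14 were above 3 counts in the culture groups, and of the 11, 5 to 10. Single genes made up much of these sums and exceeded their MEF levels, while others, among them *Tnmd* and *Csf1r*, were below their MEF levels in every culture library. Group means were 196 CPM for *Col2a1* in primed P5 (MEFs 96.2) and 129 CPM for *Alpl* in naïve P5 (MEFs 2.30). The mean for *Pecam1* was 59.2 CPM in naïve P5 (MEFs 0.255). *Alpl* and *Pecam1* were lower in primed than in naïve cells at both passages. Their means were 23.1 and 10.4 CPM in primed P5, 102 and 47.5 CPM in naïve P15, and 7.45 and 1.20 CPM in primed P15.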
